A study of Mus musculus with 12 samples.

Results

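Of the 12 libraries in this series, 6 held 48.9% to 56.1% of their counts in globin, the oxygen carrier of red cells, and the comparison here sets NM1 knockout (KO) against wild-type (WT) samples within those 6. The libraries were chosen by their counts: Hba-a1, Hba-a2, Hbb-bs and Hbb-bt together had to take over 25% of all counts in a library. The WT samples that passed were blood WT 01, spleen WT 02 and spleen WT 04, and the KO samples were blood KO 02, blood KO 03 and spleen KO 03. Globin took 48.9% of counts in blood WT 01, the lowest share inside the limit, and 56.1% in spleen WT 04, the highest. The nearest library outside the limit, blood WT 03, had 5.89%, and the 6 excluded libraries went down to 0.846%.

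All mice were C57/Bl6 and 8 months old, without a treatment named in the labels. WT mice carried no NM1 change, and KO mice lacked nuclear myosin 1. Blood was drawn from the submandibular vein and spleen was a piece cut from the organ's tip, and poly-A or ribosomal RNA selection is not given in the sources used here. Whether each library is a separate mouse is not stated, so the p-values measure the spread between these libraries, which may in part be technical. Blood KO 03 and spleen KO 03 carry the same number and could come from 1 mouse, which the labels do not say.

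Nuclear myosin 1 is a form of Myo1c, a class I myosin that links membranes to actin. It carries an extra stretch at its start and works in the nucleus, where it acts with actin in transcription by RNA polymerases I and II and in opening chromatin. Platelets and immune cells are the subject named in the study's title. In whole blood, red cells and reticulocytes supply most globin messenger RNA, platelets carry RNA inherited from megakaryocytes, and B cells, T cells, monocytes and neutrophils supply most of the remaining transcripts.

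The tissue labels were uneven over genotype: WT held 1 library labelled blood and 2 labelled spleen, and KO held 2 labelled blood and 1 labelled spleen. Markers of spleen tissue were nearly absent whatever the label. Vcam1, an adhesion protein of red pulp macrophages and stroma, had 0 to 1.72 CPM (counts per M counts, with M for 10 to the power of 6 and globin left out of the total) in the 6 globin-rich libraries and 197 to 411 CPM in the 6 globin-poor ones. It had 0 counts in blood KO 03 and in spleen KO 03, where the limit set by no counts is 0.563 and 0.548 CPM. Spic, the transcription factor of red pulp macrophages, reached 1.69 CPM at most, against 46.4 CPM or more in the globin-poor libraries. Cd5l, a macrophage secreted protein, reached 3.91 CPM against 45.3 CPM or more. The libraries labelled spleen WT 02, spleen WT 04 and spleen KO 03 thus lacked defining markers of the spleen, and each is called here by its label only. Hbb-bs, the adult beta globin, took 268636 to 312894 CPM of all counts. Pf4, the platelet chemokine, ranged from 279 to 870 CPM and Ppbp, another platelet chemokine, at 660 to 2305 CPM. Total counts were 9.32 to 12.1 M, which left 4.09 to 5.83 M counts outside globin.

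Counts of olfactory receptor genes, which nose neurons use to detect odours, split the 6 libraries. Over 1036 genes with a symbol of Olfr and digits, the summed level was 121 CPM in blood WT 01, 93.5 CPM in spleen WT 02 and 87.0 CPM in spleen WT 04. In KO it was 110 CPM in blood KO 02, 6.76 CPM in blood KO 03 and 6.95 CPM in spleen KO 03. All 3 WT libraries and blood KO 02 were thus high, and the other 2 KO libraries were at the level of the globin-poor libraries, which ran from 4.54 to 9.98 CPM. The means were 101 CPM ± 18.3 in WT and 41.1 CPM ± 59.3 in KO (SD, n = 3 each). Their difference of -59.6 CPM had an exact two-sided permutation p of 0.3, where 0.1 is the smallest that 3 against 3 libraries can give. With globin kept in the total the difference was -26.6 CPM, with the same exact permutation p of 0.3. These sums overlapped between the genotypes, but after scaling by TMM (explained below) they did not. They were then 103, 127 and 110 CPM in blood WT 01, spleen WT 02 and spleen WT 04. In blood KO 02, blood KO 03 and spleen KO 03 they were 90.6, 7.40 and 5.53 CPM. The scaled sums were not tested.

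Other receptors of smell, taste and pheromones followed the same split. Over 353 such genes the sums were 31.0 CPM in blood WT 01, 23.7 CPM in spleen WT 02, 28.6 CPM in spleen WT 04 and 33.97 CPM in blood KO 02. They were 0.939 CPM in blood KO 03 and 4.57 CPM in spleen KO 03. Genes with at least 1 count numbered 26646, 24323 and 21978 in those WT libraries and 25383 in blood KO 02, but 15725 in blood KO 03 and 16575 in spleen KO 03. The bars of sensory receptor sums and detected genes show 4 long and 2 short libraries in each panel. Because 2 of the 3 KO libraries are the short ones, this feature is uneven over genotype, and it is given beside the results it moves with.

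**Figure D1:**
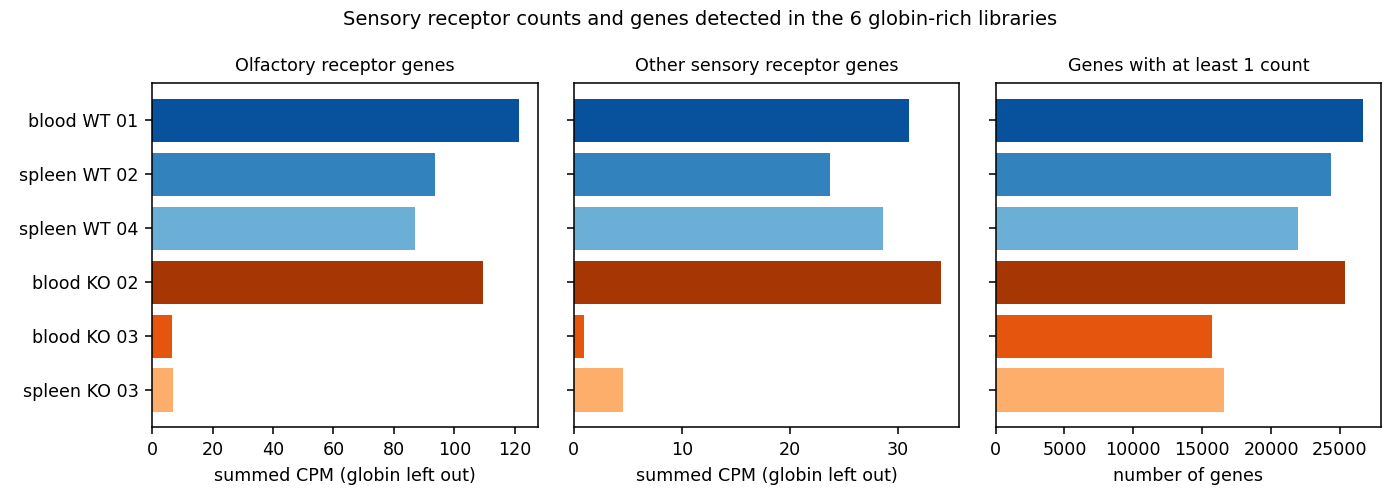
Summed CPM (globin left out) of olfactory receptor genes and of other sensory receptor genes, and the number of genes with at least 1 count, for each of the 6 globin-rich libraries (blue, WT; orange, KO). Blood KO 03 and spleen KO 03 stand apart from the other 4, with 6.76 and 6.95 CPM of olfactory receptors against 87.0 to 121 CPM.

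No gene passed the test of KO against WT. By edgeR's quasi-likelihood test with Benjamini-Hochberg adjustment, 0 of 11845 genes (0%) were called higher and 0 (0%) lower at an adjusted p of 0.05, and the smallest adjusted p was 0.641. Before adjustment, 190 genes (1.6% of those tested) had a p under 0.05 with KO higher and 632 (5.34%) with KO lower. DESeq2 called 34 genes, all lower in KO (0.287%), and gave 879 genes a p under 0.05 before adjustment; limma-voom made no call (0) and gave 1111. Of the 34 genes called by DESeq2, 31 had a mean under 10 CPM. With the summed olfactory receptor level as a term, edgeR called 0 genes and 510 had an unadjusted p under 0.05. With tissue label as a term it called 0, and 731 had one.

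Where the groups did not overlap, the directions were about even in total. Every KO library lay above every WT library for 810 genes (6.84%) and below for 814 (6.87%). They were uneven by level. From 2 to 5 CPM, 17.1% of genes had every KO library below and 3.23% above. Over 100 CPM, 1.26% had every KO library below and 7.97% above. The shares over all genes are thus a rough background for lists at other levels. The median log2 fold change over all tested genes was -0.0049 after TMM scaling (which sets libraries level by their trimmed mean ratio), and 0.30 with library size as the only scaling. The log2 fold change differed with the level. A gene had to reach a minimum count in 3 libraries to be tested, so a gene with a very low mean passed only through the libraries where it was high. Those could be the WT libraries alone or the KO libraries alone. The size of the fold changes in the lowest class is therefore set in part by that filter. Among 515 genes with a mean under 2 CPM the median log2 fold change was -1.04, and among 2290 genes of 2 to 5 CPM it was -0.34. It was -0.03 from 5 to 10 CPM, 0.07 from 10 to 30 CPM, 0.09 from 30 to 100 CPM and -0.17 over 100 CPM. The lowest class had medians of 2.03, 2.66 and 1.55 CPM in blood WT 01, spleen WT 02 and spleen WT 04. It had 1.92 CPM in blood KO 02, near the WT libraries, and 0.411 and 0.582 CPM in blood KO 03 and spleen KO 03, the same pair that was low in sensory receptors.

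**Figure D2:**
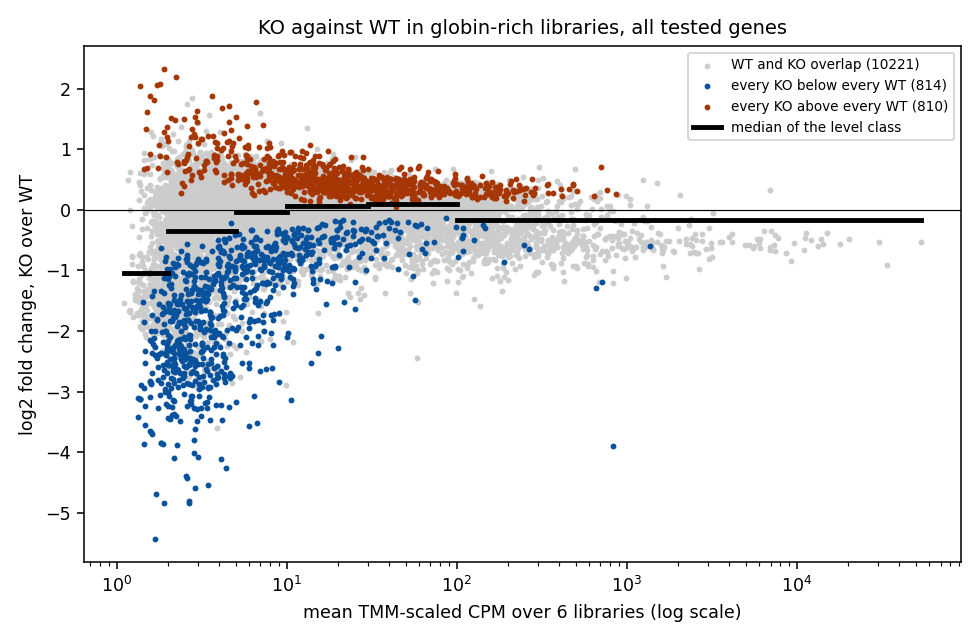
Log2 fold change of KO over WT against mean TMM-scaled CPM (log axis) for the 11845 tested genes, coloured by whether the 3 KO libraries lay all above, all below or among the 3 WT libraries, with black bars for the median of each level class. Genes below 5 CPM lie mostly under 0, with class medians of -1.04 and -0.34, and the medians from 5 CPM to 100 CPM lie between -0.03 and 0.09.

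The number of genes called by edgeR's quasi-likelihood test turned on the library blood KO 02, as well as on the filter on low counts (45 calls without it, 44 of them lower in KO). Without blood KO 02, 567 of 12622 genes were called lower in KO (4.49%). The KO group was then blood KO 03 and spleen KO 03, which could come from 1 mouse, so these calls may rest on 1 KO animal. With those libraries summed and blood KO 02 kept, edgeR called 0 genes. Leaving out any one of the other 5 libraries gave 0 calls. Of those 567 genes, 508 had a mean under 5 CPM and 296 had 0 counts in both blood KO 03 and spleen KO 03. Of the 567, 446 were also tested in the comparison of all 6 libraries. WT counts alone could pass the filter on low counts in both fits, and it asked for fewer libraries with a KO library left out. For genes with 0 counts in both KO libraries, that entry fixed the direction. Median levels of the 567 genes were 3.92 CPM in blood WT 01, 5.31 CPM in spleen WT 02 and 3.09 CPM in spleen WT 04. They were 2.07 CPM in blood KO 02 and 0 CPM in the other KO libraries. Blood KO 02 was at or above the lowest WT library for 198 of them. Protein-coding genes made up 473 of the 567, and 2 were olfactory receptors. What part the number of genes detected has in these calls was not tested.

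Myo1c itself was measured in all 6 libraries. The gene lies at chr11:75650504-75673910 on the plus strand of GRCm38 (ENSMUSG00000017774). It stood at 151 CPM in blood WT 01, 79.4 CPM in spleen WT 02 and 87.8 CPM in spleen WT 04, and at 165, 170 and 102 CPM in blood KO 02, blood KO 03 and spleen KO 03. The groups overlapped, and the log2 fold change was 0.45 ± 0.31 (SE; edgeR adjusted p = 0.736). Levels were higher under the blood label than under the spleen label in both genotypes. The log2 fold change was 0.22 with the label as a term, 0.15 within the blood label and 0.29 within the spleen label. It was 0.80 without blood WT 01 and 0.29 without spleen WT 02. A count of the whole gene also takes in the cytoplasmic forms, so it does not check the loss of the nuclear form.

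The genes named as higher in every KO library included Dnase2a, Sh2b1, Irf3 and Acp5 (log2 fold changes of 1.07, 0.71, 0.72 and 0.62). They are the 12 non-overlapping genes with the smallest p among those of at least 5 CPM, with predicted genes and sensory receptors left out, and none was called (edgeR adjusted p of 0.641 to 0.705). Their log2 fold changes ran from 0.62 to 1.07. Read as a set they are a description, since 6.84% of all tested genes have the same arrangement. Values over a group are given in the order blood WT 01, spleen WT 02 and spleen WT 04, and blood KO 02, blood KO 03 and spleen KO 03.

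Dnase2a, the lysosomal enzyme that breaks down the DNA of engulfed cells and of nuclei shed by red cell precursors, had the smallest p. It lies at chr8:84908560-84922915 on the plus strand. It stood at 8.997, 8.26 and 9.27 CPM in blood WT 01, spleen WT 02 and spleen WT 04, and at 16.9, 18.5 and 20.5 CPM in blood KO 02, blood KO 03 and spleen KO 03. The lowest KO value was thus well above the highest WT value, and the log2 fold change was 1.07 ± 0.24 (SE; edgeR adjusted p = 0.641). Another lysosomal enzyme, Acp5, the tartrate-resistant acid phosphatase, stood at 52.1, 54.9 and 53.8 CPM across WT against 86.8, 81.2 and 79.3 CPM across KO libraries. Lamtor3, part of the complex that holds mTORC1 at the lysosome, stood at 10.9, 8.26 and 13.3 CPM across WT against 20.5, 17.5 and 22.0 CPM across KO libraries. WT values lay close together for Acp5 and were more spread for Lamtor3.

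Sh2b1, an adaptor of JAK2 and insulin receptor signalling, showed tight groups. It lies at chr7:126466994-126475424 on the minus strand, and stood at 37.9, 33.9 and 34.9 CPM across WT against 57.1, 57.8 and 60.2 CPM across KO libraries. Its log2 fold change was 0.71 ± 0.18 (SE; edgeR adjusted p = 0.705). Irf3, a transcription factor that switches on type I interferon, stood at 43.0, 42.8 and 49.4 CPM across WT against 60.6, 82.8 and 79.4 CPM across KO libraries. Interferon-stimulated genes as a list did not share its direction, as given further on.

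Hnrnph3, an RNA-binding splicing protein, stood at 22.6, 14.8 and 21.6 CPM across WT against 33.0, 41.1 and 34.3 CPM across KO libraries. Las1l, which takes part in cutting ribosomal RNA precursors, stood at 22.8, 12.7 and 14.5 CPM across WT against 31.5, 32.3 and 29.2 CPM across KO libraries. Creld2, a protein of the endoplasmic reticulum that is induced by misfolded proteins, stood at 7.26, 7.67 and 6.80 CPM across WT against 15.1, 12.3 and 14.8 CPM across KO libraries. The remaining genes of the 12 were Synj2bp, an outer mitochondrial membrane protein, Llgl2 of cell polarity, Trappc13 of vesicle tethering and Coq2 of coenzyme Q synthesis.

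The genes named as lower in every KO library, among them Asf1b, Col18a1 and Ptprn, had lower levels than those named as higher. The 12 chosen by the same rule had a median mean level of 7.59 CPM, against 17.9 CPM for the 12 higher genes. Their log2 fold changes ran from -2.66 to -1.21, and none was called in the comparison of all 6 libraries (edgeR adjusted p = 0.641 for each). DESeq2 called 7 of the 12, where it called 0.287% of all genes lower. Without blood KO 02 edgeR called 7 of the 12, where it called 4.49% of all genes lower. The KO group was then blood KO 03 and spleen KO 03 alone, which could come from the same mouse. The 12 were chosen by p from these same libraries, which favours such calls, so the counts are a description only. The share of all genes with this arrangement was 6.87%.

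Asf1b, a chaperone that hands histones to newly made DNA, had the smallest p of the comparison's named genes. It lies at chr8:83955507-83970197 on the plus strand. It stood at 9.87 CPM in blood WT 01, 15.3 CPM in spleen WT 02 and 13.9 CPM in spleen WT 04, and at 3.84, 4.52 and 2.62 CPM in blood KO 02, blood KO 03 and spleen KO 03. All KO libraries were low, blood KO 02 included, and the log2 fold change was -1.83 ± 0.35 (SE; edgeR adjusted p = 0.641). Scamp5, a secretory vesicle protein, stood at 10.9, 17.4 and 19.5 CPM across WT against 6.50, 5.76 and 5.67 CPM across KO libraries. Ttll1, an enzyme that adds glutamate chains to tubulin, stood at 19.7, 35.1 and 22.9 CPM across WT against 11.7, 10.5 and 11.1 CPM across KO libraries. For these genes blood KO 02 was within the range of the other KO libraries or close to it, unlike the median of the genes under 2 CPM.

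Other genes of the 12 had larger differences at low levels. Col18a1, the collagen that gives rise to endostatin, stood at 15.1, 13.9 and 10.2 CPM across WT against 3.84, 1.85 and 0.582 CPM across KO libraries, with blood KO 02 the highest of the KO libraries. Efemp2, a protein of elastic fibres, stood at 11.5, 15.6 and 3.71 CPM across WT against 1.63, 1.44 and 2.18 CPM across KO libraries. Sez6l2, a membrane protein of neurons, stood at 9.29, 10.3 and 12.1 CPM across WT against 3.84, 2.06 and 2.91 CPM across KO libraries. Both groups were compact for Sez6l2, while spleen WT 04 was near the KO range for Efemp2.

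Ptprn, a protein of neuroendocrine secretory granules, stood at 21.9, 55.8 and 37.1 CPM across WT against 11.2, 8.22 and 16.7 CPM across KO libraries. Hcn3, a pacemaker channel, stood at 11.6, 10.6 and 11.7 CPM across WT against 4.88, 2.67 and 1.75 CPM across KO libraries. Myo15, a myosin of inner ear hair cells, stood at 9.58, 18.6 and 8.03 CPM across WT against 3.40, 0.617 and 1.45 CPM across KO libraries. Blood KO 02 was the highest KO library for Hcn3 and Myo15 and in between for Ptprn. The other 3 were the kinase gene Pkn3, the neuronal membrane gene Bean1 and Pycr1, an enzyme of proline synthesis.

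**Figure D3:**
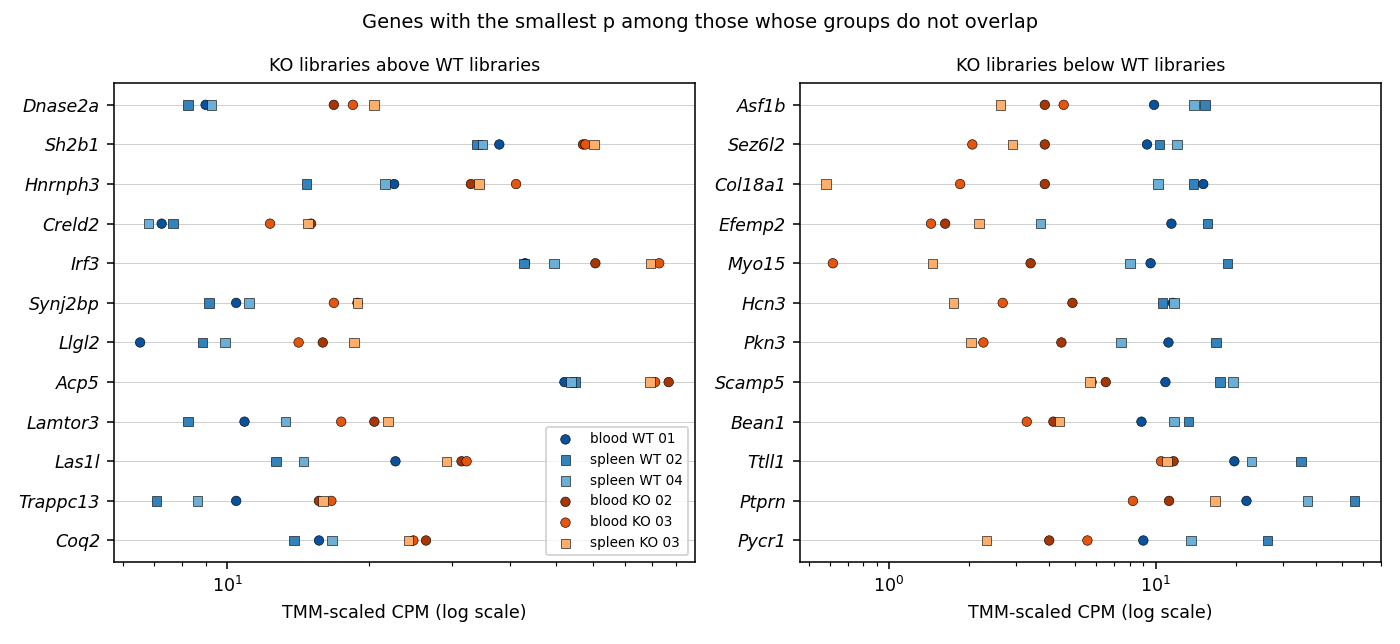
TMM-scaled CPM (log axis) of the 24 named genes in each of the 6 libraries (blue, WT; orange, KO; circles, labelled blood; squares, labelled spleen). The 12 genes on the left have all KO points to the right of the WT points and the 12 on the right the reverse, while none of the 24 had an edgeR adjusted p below 0.641.

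The 24 genes kept their direction within each tissue label. KO over WT was above 0 for 12 of the 12 higher genes and below 0 for 12 of the 12 lower genes, both among the libraries labelled blood and among those labelled spleen. Because the groups do not overlap, the choice of these genes fixes that direction. In the globin-poor libraries, which played no part in the choice, none of the 24 had all KO libraries on the same side. The log2 fold change there was above 0 for 7 of the 12 higher genes (-0.15 to 0.58) and below 0 for 5 of the 12 lower ones (-0.24 to 1.02). Some lower genes were near the floor there and say little. On unscaled CPM Bean1 had 0.044 to 0.32, Ptprn 0.554 to 1.15 and Myo15 0.505 to 3.03. Others were well measured, such as Asf1b at 21.7 to 146 CPM.

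The KO effect in globin-rich libraries was also tested against that in globin-poor libraries, as the interaction of genotype and library kind over all 12. EdgeR's quasi-likelihood test called 0 of 17556 genes (0%), with a smallest adjusted p of 0.556. Before adjustment 1107 genes (6.31%) had a p under 0.05, of which 915 had the lower KO effect in the globin-rich libraries. Limma-voom likewise made 0 calls, and 1458 genes reached that p before adjustment. Without blood KO 02 the edgeR count was 94, and without spleen WT 04 it was 1.

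Platelet genes had log2 fold changes below 0 as a list, with the tissue label moving beside them. Of 40 platelet and megakaryocyte markers tested, 39 had a log2 fold change below 0, with a median of -0.94 against -0.0049 over all genes, and 0 were called. An unadjusted edgeR p under 0.05 with KO lower was reached by 16 of the 40 (40%, against 5.34% of all genes). Every KO library lay below every WT library for 2 of the 40 (5%). That share was 6.87% over all genes and 1.26% over genes above 100 CPM. Their summed level was 10538 CPM in blood WT 01, 26858 CPM in spleen WT 02 and 26494 CPM in spleen WT 04. In KO it was 10013 CPM in blood KO 02, 8058 CPM in blood KO 03 and 15951 CPM in spleen KO 03. Libraries labelled spleen were high and those labelled blood low in both genotypes, so the groups overlapped, and WT holds more of the spleen label. The list median was -0.19 within the blood label, -0.79 within the spleen label and -0.52 with the label as a term. Without TMM scaling the sums of the spleen-labelled libraries were 20006, 21083 and 20112 CPM, the last in KO. Those of the blood-labelled libraries were then 12614 CPM in blood WT 01, 12222 CPM in blood KO 02 and 7380 CPM in blood KO 03. With library size as the only scaling the list median was -0.49, against 0.30 over all genes. What part the tissue label and the scaling have in the list median was not tested. In bulk samples a difference in platelet number and one in RNA per platelet cannot be told apart.

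Among the markers, Thbs1, the adhesive glycoprotein thrombospondin 1 of platelet alpha granules, stood at 458 CPM in blood WT 01, 1084 CPM in spleen WT 02 and 1258 CPM in spleen WT 04. It stood at 453, 364 and 330 CPM in blood KO 02, blood KO 03 and spleen KO 03, so that blood WT 01 was close to the KO libraries and both spleen-labelled WT libraries were far above them. Its log2 fold change was -1.29 ± 0.40 (SE; edgeR adjusted p = 0.705), -0.17 within the blood label and -1.83 within the spleen label. F2rl3, the thrombin receptor PAR4, stood at 1.74, 12.1 and 6.49 CPM across WT against 1.77, 0.411 and 1.02 CPM across KO libraries. For both genes the 2 spleen-labelled WT libraries carried the difference. They are the 2 markers with the smallest p and do not stand for the list. On unscaled CPM Pf4 had 417, 684 and 729 CPM across WT against 382, 279 and 870 CPM across KO libraries, highest in spleen KO 03. Ppbp had 1070, 2296 and 2305 CPM across WT against 1086, 660 and 1997 CPM across KO libraries.

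Signalling genes of platelet activation were nearer to 0, with 28 of 45 below 0 and a median of -0.13. Vcl, the actin anchor vinculin, stood at 23.7, 49.3 and 33.4 CPM across WT against 21.6, 7.61 and 16.4 CPM across KO libraries. Fermt3, the integrin activator kindlin 3, stood at 351, 951 and 1013 CPM across WT against 397, 302 and 514 CPM across KO libraries. Fermt3 overlapped between the groups and Vcl did not. Coagulation and complement genes had 9 of 17 below 0 and a median of -0.31. F13a1, the fibrin crosslinking factor XIII A chain, stood at 195, 382 and 345 CPM across WT against 125, 120 and 240 CPM across KO libraries. None of these genes was called by edgeR over the 6 libraries, and Cd59a of the complement list was called lower within the spleen label, as given further on.

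Red cell genes had a sign that depended on the label. Of 39 erythroid genes without globin, 39 had a log2 fold change below 0, with a median of -0.57, and 0 were called. Within the blood label 37 of the 39 were above 0 (median 0.37), and within the spleen label 39 of 39 were below 0 (median -1.56). Their sums were 156366, 308012 and 270066 CPM in blood WT 01, spleen WT 02 and spleen WT 04, and 155547, 236374 and 119197 CPM in blood KO 02, blood KO 03 and spleen KO 03. After TMM scaling spleen KO 03 was the lowest of all and the 2 spleen-labelled WT libraries the highest. The TMM factors were 0.745 in spleen WT 02, 0.796 in spleen WT 04 and 1.26 in spleen KO 03. Without TMM scaling spleen KO 03 was still the lowest, at 150290 CPM. Blood KO 03, at 216465 CPM, then lay between spleen WT 04 at 214908 CPM and spleen WT 02 at 229434 CPM. Genes of heme synthesis had 9 of 9 below 0 (median -0.52), with 0.29 within the blood label and -1.34 within the spleen label. All genes over 100 CPM had medians of 0.16 and -0.26 under the same labels.

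Gata1, the main transcription factor of red cell precursors, stood at 23.1, 78.8 and 62.7 CPM across WT against 23.4, 33.3 and 28.2 CPM across KO libraries. Gypc, a glycophorin of the red cell membrane, stood at 21.6, 54.3 and 62.1 CPM across WT against 24.7, 23.8 and 21.7 CPM across KO libraries. Cpox, an enzyme of heme synthesis, stood at 37.9, 83.2 and 53.5 CPM across WT against 37.5, 47.3 and 26.9 CPM across KO libraries. For all 3 genes blood WT 01 lay among or near the KO libraries.

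**Figure D4:**
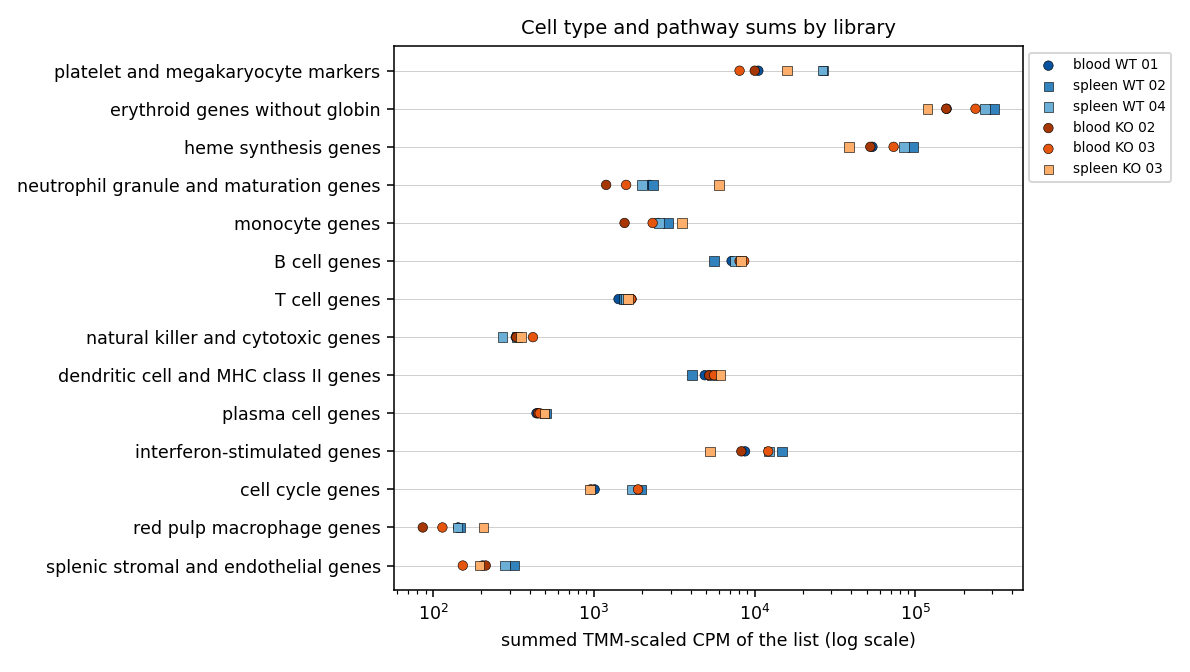
Summed TMM-scaled CPM (log axis) of 14 cell type and pathway lists in each of the 6 libraries (blue, WT; orange, KO; circles, labelled blood; squares, labelled spleen). The platelet sums of spleen WT 02 and spleen WT 04 stand to the right at 26858 and 26494 CPM, the neutrophil sum of spleen KO 03 at 6001 CPM, and the B cell sums of KO lie above those of WT.

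B cell genes lay slightly higher in KO. Of 25 tested, 24 were above 0, with a median log2 fold change of 0.32, and 8 (32%, against 6.84% of all genes) had every KO library above every WT library. None was called, and 0 of the 25 had an unadjusted p under 0.05 with KO higher by edgeR, against 1.6% of all genes. Their sums were 7187, 5582 and 7576 CPM across WT against 8063, 8614 and 8203 CPM across KO libraries. The median was 0.20 within the blood label and 0.29 within the spleen label. The groups of sums overlapped without TMM scaling, at 8602, 4158 and 6029 CPM across WT against 9842, 7889 and 10343 CPM across KO libraries. Ebf1, a transcription factor of the B lineage, stood at 73.0, 43.7 and 75.1 CPM across WT against 93.6, 85.9 and 84.2 CPM across KO libraries. Blnk, a linker in B cell receptor signalling, stood at 58.9, 36.0 and 47.9 CPM across WT against 61.9, 62.7 and 65.0 CPM across KO libraries. Spleen WT 02 was the lowest library for both genes.

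T cell genes were above 0 for 25 of 30, with a median of 0.21, and 0 were called. Their sums were 1424, 1544 and 1585 CPM across WT against 1716, 1709 and 1634 CPM across KO libraries, which did not overlap, but did overlap without TMM scaling. Trbc1, a constant gene of the T cell receptor beta chain that shares much sequence with its neighbour Trbc2, stood at 30.04, 28.6 and 32.8 CPM across WT against 38.1, 46.2 and 45.2 CPM across KO libraries. Cytotoxic and natural killer genes were above 0 for 14 of 21 (median 0.25), and Nkg7, a cytotoxic granule protein, stood at 22.1, 20.7 and 19.2 CPM across WT against 22.5, 30.6 and 32.4 CPM across KO libraries. Blood KO 02 was close to blood WT 01 for Nkg7.

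Antigen presentation genes were above 0 for 16 of 21, with a median of 0.21. H2-DMb2, a chain of the complex that loads peptides onto MHC class II, stood at 163, 140 and 169 CPM across WT against 185, 211 and 204 CPM across KO libraries. H2-DMb1 stood at 36.1, 34.5 and 56.5 CPM across WT against 56.2, 63.5 and 68.1 CPM across KO libraries, and these 2 closely similar genes can share reads. Plasma cell genes were even, with 7 of 13 above 0 (median 0.0021). Igha, the heavy chain of immunoglobulin A, stood at 14.4, 24.2 and 17.9 CPM across WT against 12.7, 7.81 and 7.27 CPM across KO libraries.

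Neutrophil genes rested on 1 library. Of 31 tested, 25 were above 0, with a median of 0.32, and the sums were 2216, 2328 and 1992 CPM across WT against 1192, 1587 and 6001 CPM across KO libraries. Spleen KO 03 was far above every other library, and the remaining KO libraries were below WT. The median was -0.76 within the blood label, 1.33 within the spleen label and -0.75 without spleen KO 03. Mpo, the peroxidase of early neutrophil granules, stood at 2.47, 4.13 and 3.09 CPM across WT against 1.03, 0.206 and 0 CPM across KO libraries, opposite in order to the list. At such levels WT counts alone could pass the filter on low counts, which favours genes lower in KO, so that order is a description only. Ltf, lactoferrin of the later granules, stood at 2.61, 7.08 and 5.87 CPM across WT against 0.443, 0.411 and 2.76 CPM across KO libraries. Monocyte genes had a median of 0.10 and -0.24 without spleen KO 03, with 16 of 26 above 0.

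Within the spleen label, where spleen KO 03 is the lone KO library, edgeR's quasi-likelihood test called 15 genes lower (0.127%) and 5 higher (0.0422%). The lone library is there assumed to vary like the other groups. The 5 higher were Retnlg, S100a8, S100a9, Chil3 and Ifitm1, all known from neutrophils or other myeloid cells. S100a9 stood at 417 and 329 CPM in spleen WT 02 and spleen WT 04 and 1425 CPM in spleen KO 03. Under the blood label its order was opposite, with 402 CPM in blood WT 01 and 171 and 238 CPM in blood KO 02 and blood KO 03. The lower ones included Urod, an enzyme of heme synthesis, Epb42, a protein of the red cell skeleton, and Cd59a, which shields cells from complement. Cd59a stood at 251 and 260 CPM in the WT libraries and 68.5 CPM in spleen KO 03 (edgeR adjusted p = 0.046). Urod stood at 662 and 575 CPM in the WT libraries and 114 CPM in spleen KO 03, and at 219 CPM in blood WT 01 with 244 and 392 CPM in the blood KO libraries. No gene was called within the blood label, where 310 genes had an unadjusted p under 0.05 by the same test.

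**Figure D5:**
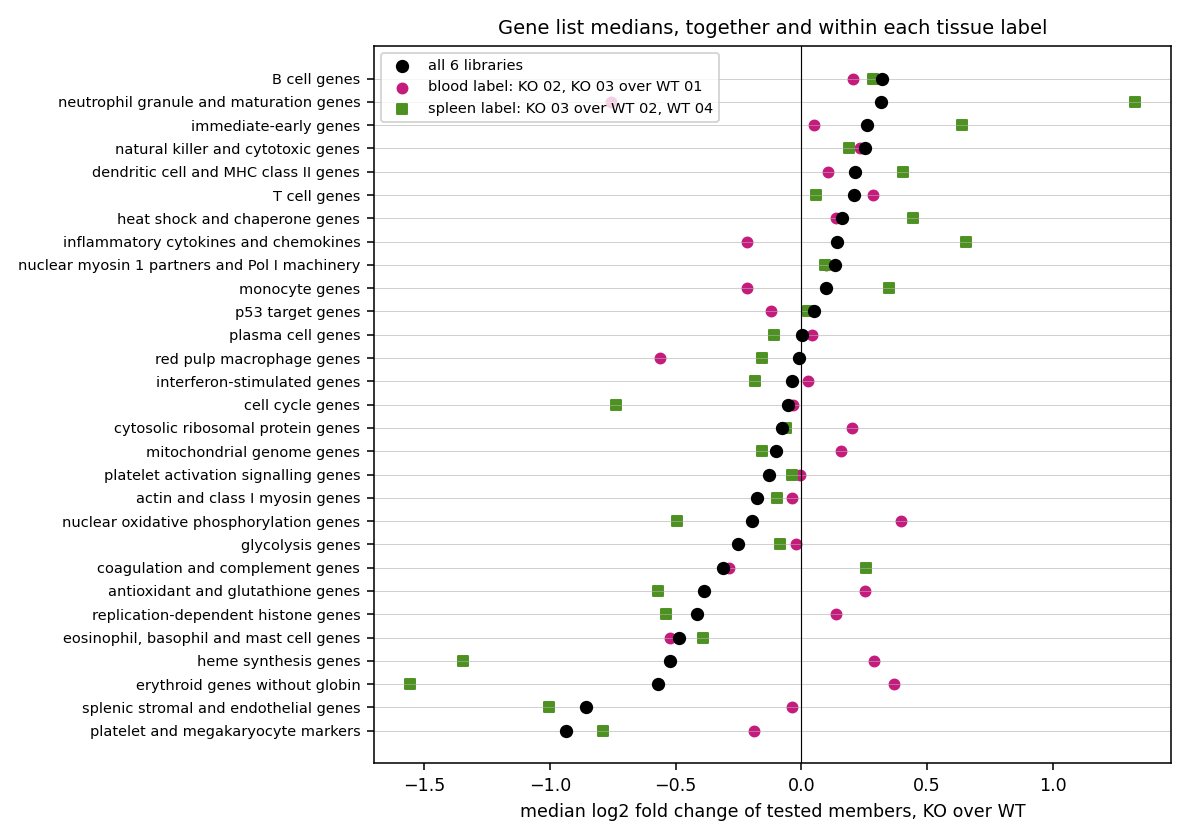
Median log2 fold change of KO over WT for gene lists with at least 5 tested members, in all 6 libraries (black), within the libraries labelled blood (pink circles) and within those labelled spleen (green squares). Erythroid genes lie at 0.37 within blood and -1.56 within spleen and neutrophil genes at -0.76 and 1.33, while B cell genes lie at 0.20 and 0.29.

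Interferon-stimulated genes were near 0 as a list, with 15 of 36 above and 21 below (median -0.04). Oasl2, an antiviral protein, stood at 77.9, 111 and 69.5 CPM across WT against 54.1, 61.3 and 64.3 CPM across KO libraries. Inflammatory cytokines and chemokines were above 0 for 10 of 17 (median 0.14), and Osm, the cytokine oncostatin M, stood at 10.4, 8.26 and 9.89 CPM across WT against 7.54, 3.70 and 5.09 CPM across KO libraries. Immediate-early genes were above 0 for 17 of 20 (median 0.26), with 0.05 within the blood label and 0.64 within the spleen label. Egr3, one of them, stood at 5.66, 2.07 and 1.24 CPM across WT against 7.98, 6.17 and 4.95 CPM across KO libraries. None of these genes was called by edgeR over the 6 libraries.

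Partners of nuclear myosin 1 and parts of the RNA polymerase I machinery were above 0 for 21 of 27, with a median of 0.14, and 0 were called. All genes of 10 to 30 CPM had a median of 0.07 and those of 30 to 100 CPM 0.09. Every KO library lay above every WT library for 1 of the 27 (3.7%), against 6.84% of all genes. Ttf1, which ends transcription by RNA polymerase I, stood at 14.9, 14.8 and 13.6 CPM across WT against 20.0, 19.9 and 17.3 CPM across KO libraries, with no overlap. Taf1c, a subunit of its promoter factor, stood at 16.5, 7.97 and 13.3 CPM across WT against 15.4, 20.1 and 20.8 CPM across KO libraries. Actin and class I myosin genes were below 0 for 24 of 33 (median -0.18), and Myo1h, a rarely expressed class I myosin, stood at 3.34, 3.25 and 4.94 CPM across WT against 1.63, 0.617 and 0.145 CPM across KO libraries. At the levels of Myo1h, WT counts alone could pass the filter on low counts, which favours genes lower in KO. Tpm4, a tropomyosin abundant in platelets, stood at 367, 873 and 921 CPM across WT against 369, 293 and 520 CPM across KO libraries.

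Genes of oxidative phosphorylation and of ribosomal proteins had medians of opposite sign under the 2 labels. The median of nuclear oxidative phosphorylation genes was -0.20, and 70 of 76 lay above 0 within the blood label and 54 of 76 below 0 within the spleen label. For cytosolic ribosomal protein genes it was -0.08, and 78 of 82 lay above 0 within the blood label and 46 of 82 below 0 within the spleen label. All genes over 100 CPM also changed sign, with medians of 0.16 within the blood label and -0.26 within the spleen label. Those of 30 to 100 CPM had 0.07 and 0.10. The list medians were 0.40 and -0.49 for oxidative phosphorylation and 0.20 and -0.06 for ribosomal proteins. Mitochondrial genome genes had a median of -0.10. Glycolysis genes had one of -0.25, with -0.021 within the blood label and -0.085 within the spleen label, and Hk1, the hexokinase of red cells, stood at 136, 299 and 261 CPM across WT against 137, 145 and 129 CPM across KO libraries. Antioxidant and glutathione genes were below 0 for 24 of 31 (median -0.39). Gstt1, a glutathione transferase, stood at 10.3, 94.7 and 190 CPM across WT against 4.58, 47.9 and 2.91 CPM across KO libraries, a spread of more than an order of magnitude within each genotype.

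Cell division and stress genes were mixed. Cell cycle genes were above 0 for 14 of 34 (median -0.05), and within the list Chek1, a checkpoint kinase, and Mcm3, part of the replication helicase, lay on opposite sides. Chek1 stood at 7.26, 15.9 and 7.73 CPM across WT against 5.17, 0.411 and 0.873 CPM across KO libraries, with blood KO 02 close to WT. Mcm3 stood at 12.5, 12.1 and 10.2 CPM across WT against 17.0, 18.3 and 18.3 CPM across KO libraries, with the KO libraries close together. Replication-dependent histone genes were above 0 for 4 of 17 (median -0.41), and the median of p53 targets was 0.05. Heat shock and chaperone genes were above 0 for 13 of 16 (median 0.16), and Hsph1, a chaperone of the HSP110 family, stood at 21.3, 22.4 and 21.0 CPM across WT against 30.7, 27.3 and 33.0 CPM across KO libraries.

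Lists of tissue cells held little signal. Red pulp macrophage genes summed to 143, 148 and 142 CPM across WT against 86.3, 114 and 206 CPM across KO libraries, where globin-poor libraries had 1766 to 2712 CPM on the unscaled scale. Stromal and endothelial genes summed to 203, 322 and 280 CPM across WT against 213, 153 and 194 CPM across KO libraries, against 2280 to 4648 CPM. Few of their members passed the filter on low counts, 9 of 20 and 10 of 32 identifiers. Axl, a receptor of macrophages that binds dying cells, stood at 6.68, 7.08 and 4.64 CPM across WT against 3.10, 0.617 and 0.436 CPM across KO libraries. Pdgfra, a receptor of fibroblasts, stood at 4.64, 2.95 and 4.33 CPM in WT, 1.03 CPM in blood KO 02 and 0 CPM in the other KO libraries. Both are among the genes called lower by edgeR without blood KO 02 (adjusted p = 0.028 and 0.027). WT counts alone could pass the filter there, as they could with all 6 libraries. Axl and Pdgfra are both lowest in the 2 libraries that were low in sensory receptors.

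Outside the naming rule, and picked after its values were seen, the long noncoding RNA Gm26917 had the largest difference among genes over 100 CPM. It stood at 1853 CPM in blood WT 01, 2600 CPM in spleen WT 02 and 219 CPM in spleen WT 04, and at 154, 111 and 48.6 CPM in blood KO 02, blood KO 03 and spleen KO 03. Spleen WT 04 was nearer to the KO libraries than to the other WT ones, and the edgeR adjusted p was 0.641. The RNA selection is not known here, and whether ribosomal RNA reads were counted at this locus was not tested.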

How the data were processed

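RNA was profiled in blood and spleen of WT and NM1 KO mice, with 3 libraries in each of 4 groups; 6 of the 12 are compared here. Each deposited table holds unnormalized counts of reads by gene, made by the authors; the submitters' processing notes name HTSeq, HISAT2 2.0.4, SAMtools 0.1.19, Trimmomatic 0.36 and FastQC, and the builds GRCm38 and mm10; the strand setting and the annotation release are not given in the sources used here. Reads of a gene and its antisense or near-identical partner may therefore be split or shared.

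Symbols and positions came from GENCODE vM21 (GRCm38), and 46091 of 46603 identifiers had one. The 11 globin genes were removed before scaling. Genes were kept by filterByExpr on genotype, scaled by TMM and tested with edgeR 4.0.16 (quasi-likelihood F test, robust) in R 4.3.3; a Benjamini-Hochberg adjusted p under 0.05 was a call, and SE is the fold change over the root of F. Levels of genes and lists are TMM-scaled CPM; sensory receptor sums and markers are unscaled CPM. DESeq2 1.42.0, limma 3.58.1 (voom), other scalings and filters, a label or olfactory receptor term, summed KO 03 libraries and leaving out each library were alternatives. The within-label fits were chosen after seeing the data. Tables and plots used Python 3.11.15, pandas 2.3.3, SciPy 1.17.1 and matplotlib 3.10.9.

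Named genes were Myo1c, the 12 smallest-p non-overlapping genes per direction of at least 5 CPM (no globin, sensory receptor, predicted, pseudo- or receptor segment genes), and up to 2 smallest-p members of at least 1 CPM per list. The 27 gene lists and 5 symbol patterns were not tested as sets; Ca2 and Faim3 had no match. Libraries, lists and members were chosen with earlier results of these data known. No library pair agreed within counting noise (smallest chi-square per degree of freedom 6.87). A count of 0 allows up to 3 counts, 0.515 to 0.733 CPM; such limits cover counting error only. The fit was tested on simulated counts with the same dispersion for all genes. They held no tissue label effect and no split in sensory receptors or detected genes, so that test does not cover these features. One single-gene result is not reported here.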

Additional observations from a re-analysis of the deposited data

Results flagged for a closer look

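Under the 2 tissue labels some TMM-scaled sums and genes had the KO libraries on opposite sides of WT, for every library, and the differences were not tested. Blood WT 01 is the lone WT library under the blood label and spleen KO 03 the lone KO library under the spleen label. For neutrophil genes both blood KO libraries summed below blood WT 01 and spleen KO 03 above both spleen WT libraries, and the median log2 fold change differed by 2.08 (spleen label minus blood label). Monocyte sums had the same order, with a difference of 0.57 in the median. So had red pulp macrophage sums, with 0.40, although the median of the members was below 0 under both labels (-0.56 and -0.16). The order was the reverse for antioxidant and glutathione sums, with -0.83, and for replication-dependent histone sums, with -0.68. Without TMM scaling the histone sums lost this order, at 641 CPM in blood WT 01, 696 and 568 CPM in the blood KO libraries, 1216 and 1230 CPM in the spleen WT libraries and 1313 CPM in spleen KO 03. The other 4 lists kept theirs.

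The named genes with this pattern were all higher in KO under the blood label and lower under the spleen label. On unscaled CPM the order was lost for Gypc, Hk1 and mt-Atp6 and kept for Gata1, Ppp1r15a and Cd59a. The difference in log2 fold change was -1.59 for Gypc and -1.61 for Gata1, both red cell genes. It was -2.42 for Cd59a, which shields cells from complement, -1.85 for Ppp1r15a, a stress response gene, -1.17 for Hk1 and -1.01 for mt-Atp6, a subunit of the mitochondrial ATP synthase.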

How the results depend on the processing

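The count of called genes, 0 by edgeR for all 6 libraries, was 45 without a filter, 34 by DESeq2, 20 within the spleen label and 0 to 568 on leaving out each library, the highest without blood KO 02; the other settings gave 0. The difference from the globin-poor KO effect, also 0, was 23 without a filter and 0 to 94 on leaving out each library, again highest without blood KO 02 and 1 without spleen WT 04; the other settings gave 0. The olfactory receptor difference stayed below 0 in every setting: it ran from -93.8 CPM without blood KO 02 to -42.4 CPM without blood KO 03 on leaving out each library, and was -26.6 CPM with globin in the total and -14.6 CPM for other sensory receptors.

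Named genes took the opposite sign in 15 cases. Within the blood label they were Gypc at 0.17, Gata1 at 0.29, Cpox at 0.16, Ppp1r15a at 0.26, Cox8a at 0.28, Hk1 at 0.048, Gstt1 at 1.31, Cd59a at 0.53, mt-Atp8 at 0.15, mt-Atp6 at 0.23, Rplp0 at 0.077 and Hist1h4n at 0.29. Within the spleen label Ifitm3 was at 0.010, with the olfactory receptor term Csf1 was at -0.20, and with library size only mt-Atp6 was at 0.029 (log2 fold changes). Of 30 list medians, 10 took the opposite sign with library size only, 12 within the blood label, 8 without a filter and at most 5 elsewhere. The cause was not tested.

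No paired analysis was possible because WT and KO globin-rich libraries share only the number 02, in different tissues. Each library holds only 4.09 to 5.83 M counts outside globin, so genes under 5 CPM rest on few counts, and 3 libraries a side limit every test.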
